A study of Mus musculus with 6 samples.

Results

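The comparison set T cells of skin graft recipients that were rejecting their graft against T cells of ungrafted mice, within the cells that carried CD69 after culture with donor cells. CD69 is a surface protein that T cells display soon after their receptor is engaged, and both samples were sorted for it. Members were all named genes measured on the 2 arrays, out of 6 in the series, with 1 array a side and no replicate. Of 8347 named genes detected on at least 1 array, 5679 reached a non-normalized signal of 500 in the brighter of the 2 arrays and 2668 did not. A list of interferon-induced genes held 92 of the 5679, and the results below concern the other 5587. Whether the list is complete was not tested, so genes that interferons induce may remain among these.

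All mice were male C57BL/6, and their ages were not given in the sources used here. Rejecting recipients carried tail skin of BDF1 donors without any treatment and were taken on day 7 after grafting, whereas naive mice had no graft. Tolerant recipients carried the same kind of skin, were given donor-specific transfusion with the CD40L antibody MR-1, and were taken on day 100. T cells of spleen and lymph node were kept for 20 to 21 h with donor spleen cells from which T cells had been removed, so that naive, rejecting and tolerant cells had all met donor antigen in culture. CD3+ cells were then sorted into a CD69+ and a CD69- fraction, as the sample titles give it (the sorting text of the labels names CD69+ for both gates), and 0.55 µg of RNA from each was labelled for a MouseWG-6 array. How many mice or cultures went into an array, and whether both fractions of a status came from the same mice, was not given in the sources used here. Levels are log2 of the background-corrected, quantile-normalized signal, and a difference is the rejecting minus the naive level.

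A T cell that recognises foreign tissue leaves quiescence, raises glycolysis and protein synthesis, secretes cytokines and chemokines, and divides. During rejection, priming takes place in the lymphoid organs that drain and filter the graft, where interferons also act on bystander T cells. Hypoxia-inducible factors, prolyl hydroxylases that mark these factors for removal, and the mTOR kinases set how far such a cell turns to glucose, and SOCS proteins damp the cytokine signals it receives.

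The sorted cells carried the transcripts their labels name. Cd69 stood at 13.77 in naive, 13.89 in rejecting and 13.31 in tolerant CD69+ cells, and at 12.53, 12.65 and 11.21 in the matching CD69- cells, so that it was higher in the CD69+ array of each status. Cd3e, a chain of the T cell receptor complex, was 14.24 in naive and 14.21 in rejecting CD69+ cells, and the 11 measured T cell marker genes had a median difference near 0, with none past 1.5-fold. Cd8b1 differed by 0.40 and Cd4 by -0.04. The B cell marker Ms4a1 and the macrophage marker Lyz2 were not detected on any array. Other markers of these cells were: 6 of 18 listed B cell markers and 3 of 14 macrophage and monocyte markers were detected. Cd79b, a B cell marker, was 8.72 in both naive and rejecting CD69+ cells. Between 12669 and 13469 probes were detected per array at a detection p under 0.01, 12821 in naive and 13169 in rejecting CD69+ cells, and array medians of the signal ran from 161.5 to 174.2.

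Rejecting CD69+ cells differed little from naive CD69+ cells across most genes. The middle 95% of differences lay between -0.40 and 0.59 and their median was -0.01, and 4825 of the 5679 genes (85.0%) were within 1.25-fold. Outside the interferon list, 97 genes (1.74% of 5587) were higher in rejecting cells by 1.5-fold or more and 30 (0.537%) were lower by as much. Of these, 9 of the higher and 6 of the lower genes reached 2-fold. With the interferon list included, 143 of the 5679 named genes (2.52%) were higher and 30 (0.528%) lower, and with unnamed probes as well 180 of 6810 features (2.64%) were higher and 39 (0.573%) lower. In the authors' value table, and in the same way with no background correction, the counts were 58 higher and 15 lower. A difference between 2 arrays has no replicate check, and in such bulk RNA fewer cells of a type cannot be told apart from less RNA per cell.

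**Figure D1:**
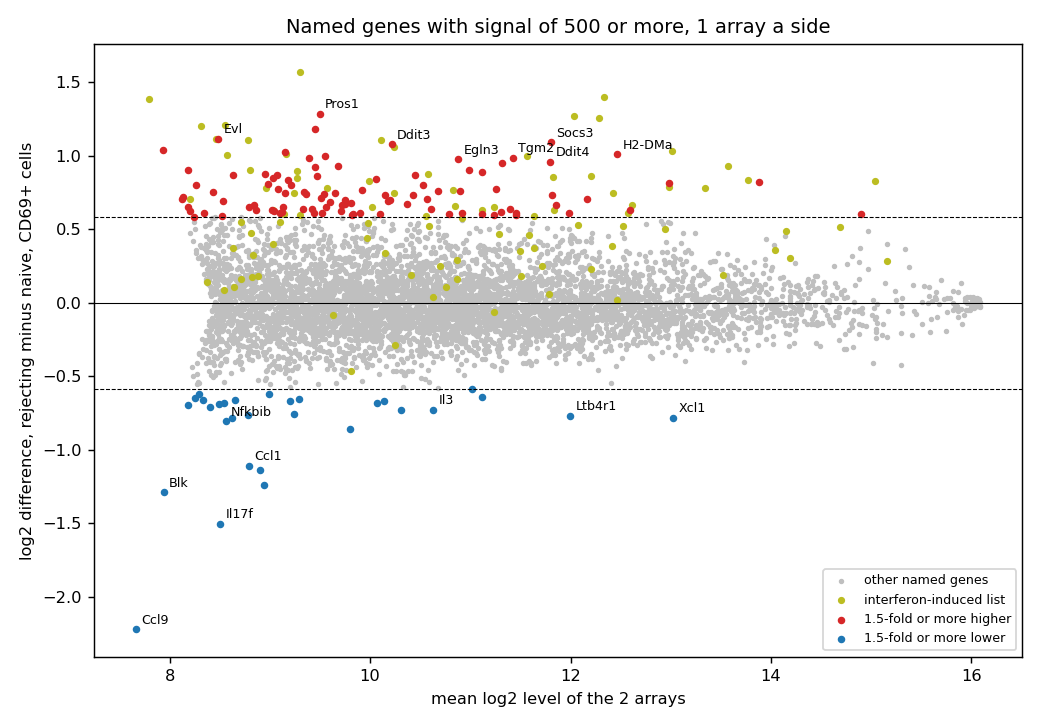
Each point is a named gene with a signal of 500 or more, with its mean log2 level over naive and rejecting CD69+ cells on the x axis and the log2 difference, rejecting minus naive, on the y axis. Most points lie within 1.25-fold of 0, 97 genes outside the interferon list lie at or above the 1.5-fold line and 30 at or below it.

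The share past 1.5-fold depended on brightness. Among genes with a signal of 500 to 1000 in the brighter array, 2.17% were higher and 1.42% lower, and among those above 10000 the shares were 0.469% and 0.156%. At the signal minimum, Cenpm at 499.99 fell just outside with a difference of -0.08 and Taf3 at 500.09 just inside with 0.05. The interferon list is given here by its counts alone: 46 of its 92 measured members were at least 1.5-fold higher, none was 1.5-fold lower, 88 were above 0 and the median was 0.58.

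The 97 higher genes had a median difference of 0.72, and the 30 lower genes one of -0.72. Both sets were dim beside the brightest transcripts of the cells, with a median signal in the brighter array of 1251 for the higher and 815.4 for the lower genes. Most of the lower genes and some of the higher genes reached the signal minimum only in the array where they were higher. Among the 15 furthest lower these were Ccl9, Il17f, Blk, Idi2, Bdh2, Ccl1, Nfkbib, Pheta1 and Actg2. Among the other lower genes they were Slc9b2, Spag4, Ak7, Pdgfb, Npw, Sult2b1, Timp2 and Cited4. Among the higher genes they included Evl, Dusp10, P4ha2, Cxcr4, Selp and Fos. The place of such genes in the counts depends on that array. Other detected probes existed for 42 of the higher genes, and all 55 of these probes lay in the same direction, 30 of them past 1.5-fold. For 6 of the lower genes 7 such probes existed, all in the same direction and 5 past 1.5-fold.

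The largest higher values belonged to genes of unlike function. Pros1 encodes protein S, a vitamin K-dependent plasma protein that is also a ligand of the TAM receptor kinases. Its level was 8.85 in naive, 10.14 in rejecting and 8.60 in tolerant CD69+ cells, and 8.48, 9.81 and 7.33 in naive, rejecting and tolerant CD69- cells. The rejecting array was the highest of the 3 statuses in both fractions, and the CD69+ difference was 2.44-fold. Selp, which encodes the adhesion receptor P-selectin and was singled out after its values were seen, had the same order. It was 8.19, 9.06 and 7.41 in naive, rejecting and tolerant CD69+ cells and 8.32, 9.42 and 7.35 in the CD69- cells. Selp reached the signal minimum in the rejecting array alone, with signals of 445.0 in naive and 706.9 in rejecting CD69+ cells, so its place here depends on that array.

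Tmie, known as a component of the mechanotransduction complex of inner ear hair cells, was 8.85 in naive, 10.04 in rejecting and 9.73 in tolerant CD69+ cells, and 11.13, 11.84 and 11.35 in the CD69- cells in that order. Its CD69+ difference was 2.27-fold, and all 3 CD69- levels were above all 3 CD69+ levels. Evl, an Ena/VASP protein that promotes actin filament growth, was 7.93 in naive, 9.04 in rejecting and 8.83 in tolerant CD69+ cells against 9.88, 10.02 and 9.92 in CD69- cells. Here the 2.17-fold difference among CD69+ cells stood beside a difference of 0.14 among CD69- cells.

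Sdc3, a heparan sulfate proteoglycan of the syndecan family, was 8.64, 9.67 and 7.67 in naive, rejecting and tolerant CD69+ cells and 9.53, 10.33 and 8.65 in CD69- cells. Tgm2, transglutaminase 2, which crosslinks proteins, was 10.93, 11.92 and 10.12 in CD69+ cells and 9.61, 10.57 and 8.22 in CD69- cells of the same 3 statuses. Both genes were highest in rejecting and lowest in tolerant mice in each fraction, with CD69+ differences of 1.02 and 0.99. Cnr2, the cannabinoid receptor of immune cells, was 9.05, 10.05 and 10.20 in naive, rejecting and tolerant CD69+ cells and 11.74, 11.88 and 11.93 in CD69- cells. Clec2d, a lectin that binds receptors of the NKR-P1 family on natural killer cells, was 10.84, 11.79 and 12.11 in the CD69+ cells and 12.22, 13.08 and 12.94 in the CD69- cells. For these last 2 genes the naive CD69+ array was the lowest of the 6. The RIKEN transcript 5430416N02Rik was 8.90 in naive and 9.89 in rejecting CD69+ cells, a difference of 0.99, and 9.65 and 10.65 in the CD69- cells.

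**Figure D2:**
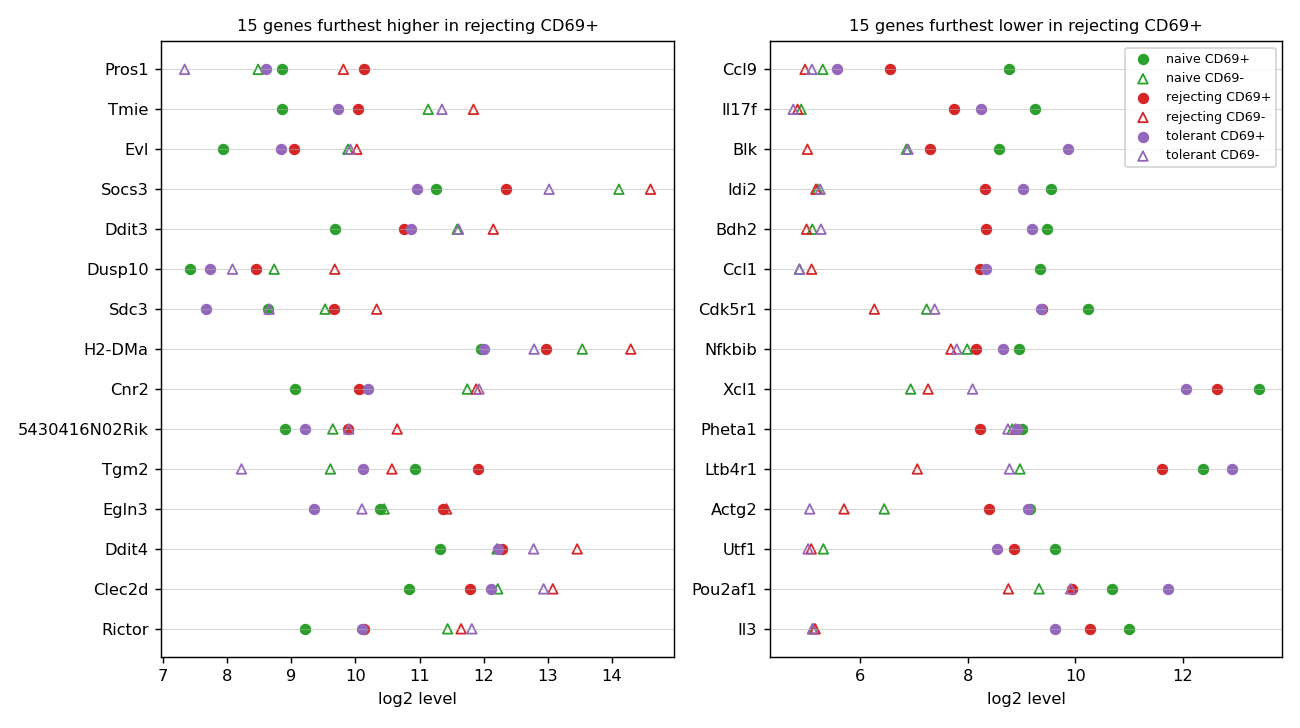
Log2 levels of the 15 genes furthest higher and the 15 furthest lower in rejecting against naive CD69+ cells, outside the interferon list, with 1 point for each of the 6 arrays. Many of the higher genes have their highest levels in CD69- cells, whereas most of the lower genes have all 3 CD69- points near the bottom of the scale.

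Feedback regulators of cytokine and kinase signalling were among the higher genes. Socs3, which blocks JAK kinases bound to receptors of the interleukin 6 family, was 11.26 in naive, 12.35 in rejecting and 10.97 in tolerant CD69+ cells, and 14.11, 14.60 and 13.02 in CD69- cells. The CD69+ difference was 2.13-fold, and the CD69- cells of every status held more than any CD69+ array. Dusp10, a phosphatase of the p38 and JNK kinases, was 7.41, 8.45 and 7.73 in naive, rejecting and tolerant CD69+ cells and 8.73, 9.68 and 8.08 in CD69- cells, with differences of 1.04 and 0.95 in the 2 fractions.

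Other genes of cytokine signalling differed less. Of 19 measured genes of interleukin 2 and STAT5 signalling, Socs3 and the interleukin 7 receptor Il7r (0.60) were past 1.5-fold higher. Of all 5587 genes outside the interferon list 1.74% were. Of the 19 genes, 11 were above 0 and the median was 0.06. Il2 itself was 13.56 in naive and 13.43 in rejecting CD69+ cells, its receptor chain Il2ra differed by -0.07, and Cish, a STAT5-induced inhibitor, by 0.06. Bcl2, a survival gene downstream of this pathway, differed by 0.53 in CD69+ and by 1.03 in CD69- cells.

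Hypoxia-inducible and glycolytic genes were the function list with the most members past the threshold after the interferon list. Of 27 measured members, 8 were at least 1.5-fold higher (1.74% of all genes outside the interferon list were), none was lower, 26 were above 0 and the median was 0.45, beside -0.01 over all named genes. The list did not hold Eno3, an enolase gene of glycolysis, which was past 1.5-fold lower in rejecting CD69+ cells. Its difference was -0.64 there and 0.29 in CD69- cells. In CD69- cells 25 of the 27 listed members were above 0 and their median was 0.29. Egln3, an oxygen-sensing prolyl hydroxylase that is itself induced by HIF, was 10.39 in naive, 11.37 in rejecting and 9.36 in tolerant CD69+ cells and 10.45, 11.42 and 10.10 in CD69- cells. Ddit4 encodes REDD1, an inhibitor of mTORC1 that hypoxia and other stresses induce, and stood at 11.32, 12.28 and 12.23 in the CD69+ and at 12.21, 13.46 and 12.78 in the CD69- cells of these statuses. Both were higher in rejecting than in naive mice in each fraction, by 0.98 and 0.97 for Egln3 and by 0.96 and 1.25 for Ddit4, and tolerant CD69+ cells were the lowest for Egln3 but near the rejecting level for Ddit4.

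P4ha2, a subunit of the enzyme that hydroxylates prolines of collagen, was 7.77 in naive, 8.50 in rejecting and 7.57 in tolerant CD69+ cells and 8.62, 9.22 and 8.58 in CD69- cells. The histone demethylase gene Kdm3a, another HIF target, was 10.21, 10.92 and 10.70 in CD69+ cells and 12.21, 12.32 and 12.27 in CD69- cells. Slc2a3, the glucose transporter GLUT3, was 11.81, 12.52 and 12.18 in CD69+ cells and 13.14, 13.53 and 13.40 in CD69- cells. All 3 were highest in rejecting mice in each fraction, although for Kdm3a the CD69- difference was 0.11. The other members past 1.5-fold, Ankrd37 (0.67), Aldoc (0.66) and P4ha1 (0.61), were named after their values were seen, and Slc2a1, the glucose transporter GLUT1, reached 0.55.

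The enzymes of the later steps of glycolysis were among the brightest transcripts of the cells, close to the top of the arrays' range, and their differences cannot be set against those of dimmer genes. Gapdh was 15.62 in naive and 15.77 in rejecting CD69+ cells, with non-normalized signals of 52623 and 54825. Ldha, lactate dehydrogenase, was 15.94 and 15.98, Pkm, pyruvate kinase, differed by 0.08, and the cytokine and HIF target Mif by 0.01. Hif1a, the regulated subunit of the oxygen-sensitive factor, was 10.14 in naive and 10.32 in rejecting CD69+ cells but 9.25 and 8.88 in the CD69- cells, so that its difference was 0.18 in the first fraction and -0.37 in the second.

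Promoter sequence was examined for the core of the hypoxia response element, since this element is what HIF binds next to such genes. The sequences are from RefSeq on build GRCm38.p6, 300 bases around each annotated start, on the strand of the gene. The letters searched were ACGTG and GCGTG with CACGT and CACGC for the other strand, shown in capitals, and matches may overlap. Egln3 at chr12:54203825-54204124, minus strand, held 1 match. Ddit4 at chr10:59951721-59952020, minus strand, held 2. These are the 2 members furthest higher and Ankrd37, another HIF target, shown for contrast since it held more matches. Ankrd37 lies at chr8:45999801-46000100, minus strand, and held 4, an overlapping pair among them.
Egln3: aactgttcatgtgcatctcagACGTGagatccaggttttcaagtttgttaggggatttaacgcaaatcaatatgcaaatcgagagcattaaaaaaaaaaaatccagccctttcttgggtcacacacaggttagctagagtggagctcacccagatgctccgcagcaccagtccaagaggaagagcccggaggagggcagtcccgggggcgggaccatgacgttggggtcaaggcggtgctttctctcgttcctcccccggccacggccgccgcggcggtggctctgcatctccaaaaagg
Ddit4: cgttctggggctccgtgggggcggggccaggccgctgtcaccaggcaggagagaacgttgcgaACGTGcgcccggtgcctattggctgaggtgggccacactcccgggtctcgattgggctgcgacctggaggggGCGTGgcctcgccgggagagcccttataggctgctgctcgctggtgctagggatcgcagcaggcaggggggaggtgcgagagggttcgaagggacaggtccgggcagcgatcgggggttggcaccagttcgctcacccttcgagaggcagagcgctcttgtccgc
Ankrd37: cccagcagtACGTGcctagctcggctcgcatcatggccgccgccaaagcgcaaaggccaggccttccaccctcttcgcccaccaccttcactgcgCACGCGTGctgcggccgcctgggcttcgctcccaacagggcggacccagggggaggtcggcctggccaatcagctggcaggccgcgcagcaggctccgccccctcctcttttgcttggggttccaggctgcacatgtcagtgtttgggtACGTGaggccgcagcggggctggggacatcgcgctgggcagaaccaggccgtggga

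These letters are short and common. They were found in 43.8% of all 32851 promoters of the table, in 59.6% of the 104 promoters of the higher genes, of which 78 of 97 were matched, and in 64.3% of the 28 promoters of the lower genes, of which 25 of 30 were matched. Of 10 promoters of the higher hypoxia and glycolysis genes, 8 held a match, 80.0%. The 10 belong to 7 of the 8 genes, some with several promoters, and each of the 7 genes held a match. The share over all promoters was not limited to genes detected in these cells and not matched for GC content. The interferon response element core, searched on both strands, was in 5.77% of the promoters of the higher genes, in 0.0% of those of the lower genes and in 3.44% of all. A STAT site, TTCNNNGAA, was in 8.65%, 10.7% and 8.3%, and an AP-1 site, TGACTCA or TGAGTCA, in 7.69%, 3.57% and 5.2% in the same order. A match is a run of letters and was not shown here to be bound.

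Stress and amino acid response genes gave a split picture. Ddit3 encodes CHOP, a transcription factor of the unfolded protein and integrated stress responses, and was 9.68 in naive, 10.76 in rejecting and 10.87 in tolerant CD69+ cells and 11.59, 12.15 and 11.61 in CD69- cells. Trib3, a pseudokinase that CHOP and ATF4 induce, was 9.78, 10.52 and 10.33 in CD69+ cells and 11.90, 12.06 and 12.51 in CD69- cells. In both genes the naive CD69+ array was the lowest of all 6, with differences of 1.08 and 0.74.

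The amino acid and tRNA charging genes around them did not share this. Of 25 measured members, these 2 were past 1.5-fold higher, beside 1.74% of all 5587 genes outside the interferon list. Of the 25 members, 8 were above 0 and the median was -0.06. Atf4 differed by 0.06, its target Asns, asparagine synthetase, by 0.03, and Slc1a5, a glutamine transporter, by -0.51. Of 25 chaperone and protein folding genes, Ddit3 alone was past 1.5-fold and the median was -0.02.

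Genes of resting T cells lay mostly above 0 in the CD69+ comparison and mostly below 0 in the CD69- comparison. Of 25 measured quiescence genes, 4 were at least 1.5-fold higher (against 1.74% overall), none was lower, 21 were above 0 and the median was 0.18, while in CD69- cells 7 were above 0 and the median was -0.04. Tsc22d3, the glucocorticoid-induced leucine zipper, was 10.01 in naive, 10.88 in rejecting and 11.68 in tolerant CD69+ cells and 13.75, 13.66 and 13.84 in CD69- cells. Pik3ip1, an inhibitor of PI3 kinase that activation switches off, was 8.61, 9.46 and 10.31 in CD69+ cells and 12.82, 12.80 and 12.92 in CD69- cells. In these genes every CD69- array was above every CD69+ array, and naive CD69+ cells were the lowest.

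Satb1, a chromatin organiser of T cells, was 14.59 in naive, 15.20 in rejecting and 14.69 in tolerant CD69+ cells, the difference being 0.61. Il7r was 9.53, 10.13 and 11.30 in CD69+ cells and 13.57, 12.89 and 13.79 in CD69- cells, so that it was higher in rejecting than naive cells in the CD69+ fraction and lower in the CD69- fraction. Klf2, which keeps T cells quiescent and recirculating, was 11.51, 12.02 and 13.05 in CD69+ cells and differed by 0.51. Rictor, the defining subunit of mTORC2 and no member of the quiescence list, was 9.21, 10.14 and 10.10 in CD69+ cells and 11.44, 11.65 and 11.81 in CD69- cells.

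The higher genes were for the most part genes with less signal in CD69+ than in CD69- cells, and the lower genes the reverse. In tolerant mice, whose 2 arrays entered the rejecting against naive comparison through the normalization, the detection filter and the choice of probe alone, 66 of the 97 higher genes (68.0%) were at least 1.5-fold lower in CD69+ than in CD69- cells and 12 (12.4%) were higher. Over all 5587 genes 20.6% were lower and 25.8% higher. Of the 30 lower genes 25 (83.3%) were above the tolerant CD69- level in tolerant CD69+ cells by 1.5-fold or more, and none was below it by as much. Most of these 30 genes reached the signal minimum in the naive CD69+ array alone, so the set depends on that array. How pure each sort was is not given in the sources used here, and the part of resting cells within the CD69+ gate in these differences was not tested.

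Genes of early activation were close to equal in naive and rejecting CD69+ cells. Of 29 measured members 1, the TNF family cytokine gene Tnfsf11 (RANKL, -0.67), was at least 1.5-fold lower, none was higher, 7 were above 0 and the median was -0.11. Irf4, a transcription factor that scales with receptor signal, was 13.15 in naive, 13.09 in rejecting and 12.30 in tolerant CD69+ cells. Myc differed by -0.32, Tnfrsf9 (4-1BB) by -0.14, the adhesion receptor Cd44 by -0.46 and Lad1 by -0.45. Among 22 immediate early genes Fos alone was past 1.5-fold, at 8.04 in naive and 8.65 in rejecting CD69+ cells but 12.50 and 11.82 in CD69- cells, 18 were above 0 and the median was 0.25. Zfp36, Ppp1r15a and Rgs1 had differences of 0.51, 0.50 and 0.46.

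Chemokine genes leaned the other way. Of 9 measured members, 3 were at least 1.5-fold lower (0.537% of all genes outside the interferon list were), none was higher, 3 were above 0 and the median was -0.41. Of the lower members, Ccl9 and Ccl1 reached the signal minimum in the naive array alone, so their count as measured depends on the naive level. Ccl9, a CC chemokine that binds CCR1, was detected in naive CD69+ cells alone, at 8.77, with 6.56 in rejecting and 5.57 in tolerant CD69+ cells and 5.31, 4.98 and 5.11 in CD69- cells, all of these not above background. Naive CD69+ cells held at least 4.36-fold more than the dimmest detected probe of the rejecting array, although in the authors' table and with no background correction the measured difference was -1.30. Ccl1, the ligand of CCR8, was 9.34 in naive, 8.23 in rejecting and 8.35 in tolerant CD69+ cells, and no CD69- array detected it.

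Xcl1, which attracts cross-presenting dendritic cells, was 13.42, 12.64 and 12.06 in naive, rejecting and tolerant CD69+ cells and 6.94, 7.26 and 8.09 in CD69- cells. Its CD69+ difference of -0.78 stood against one of 0.32 in CD69- cells. Ccl4, an inflammatory chemokine and the brightest of the list, was 15.51, 15.09 and 13.57 in CD69+ cells, and Ccl3, its close relative, was 13.34, 12.95 and 10.95. Both were highest in naive CD69+ cells, with differences of -0.42 and -0.39. Ccl5 went the other way, at 10.55 in naive, 10.96 in rejecting and 12.35 in tolerant CD69+ cells.

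The cytokine genes of helper cells other than type 1 held 2 members at least 1.5-fold lower among 10 measured, beside 0.537% of all 5587 genes. None was higher, 5 were above 0 and the median was near 0. Of the lower members, Il17f reached the signal minimum in the naive array alone. Il17f, a cytokine of the interleukin 17 family, was 9.26 in naive, 7.75 in rejecting and 8.24 in tolerant CD69+ cells, 2.83-fold lower in rejecting than naive cells, and no CD69- array detected it. Il3, a growth factor of myeloid and mast cell precursors, was 10.99, 10.27 and 9.62 in CD69+ cells and not detected in CD69- cells. Csf2 (GM-CSF) differed by -0.41, Il4 by 0.39 and Il10 by 0.17. Of 13 measured type 1 helper genes none was past 1.5-fold in either direction and the median was 0.01. Ifng was 13.84 in naive, 13.52 in rejecting and 10.76 in tolerant CD69+ cells, and Tbx21, the T-bet factor that drives it, differed by 0.24.

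Among the lower genes were some known from B cells and innate-like T cells. Blk, a Src family kinase of B cells and of gamma delta T cells that make interleukin 17, was 8.59 in naive, 7.30 in rejecting and 9.87 in tolerant CD69+ cells and 6.86, 5.02 and 6.89 in CD69- cells, where the rejecting array was not above background. Pou2af1, the coactivator OCA-B, was 10.67, 9.95 and 11.72 in CD69+ cells and 9.33, 8.76 and 9.91 in CD69- cells. Ltb4r1, the leukotriene B4 receptor BLT1 that draws effector T cells into tissue, was 12.38, 11.61 and 12.92 in CD69+ cells and 8.97, 7.07 and 8.78 in CD69- cells. All 3 were lowest in rejecting mice in both fractions and highest in tolerant CD69+ cells.

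Of 5 measured B cell markers 3 were at least 1.5-fold lower (0.537% of all genes outside the interferon list were), Blk, which reached the signal minimum in the naive array alone, Pou2af1 and Cd72 (-0.67), none was above 0 and the median was -0.67. The 6 detected genes of the 18 listed summed to a signal of 5369 in naive and 4024 in rejecting CD69+ cells, with Ms4a1 not detected and Cd79b, a chain of the B cell receptor, at 8.72 in both. Of 12 markers of gamma delta and natural killer T cells 3 were detected, with a summed signal of 2328 in naive and 1543 in rejecting cells. The 2 with enough signal, Blk, which stands in both lists, and Cd163l1 (SCART1), were each at least 1.5-fold lower. Of all 5587 genes 0.537% were. Cd163l1 was 10.41 in naive, 9.72 in rejecting and 11.84 in tolerant CD69+ cells. Il23r and Il17a, which mark T cells of the interleukin 17 type, were not detected on any array, while Ccr6, a chemokine receptor such cells carry, was 10.58, 10.09 and 10.73 in CD69+ cells. The part of these cell types in the lower values of Il17f and Blk was not tested.

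Among the 4 measured class II presentation genes 1 was past 1.5-fold higher, beside 1.74% of all 5587 genes. H2-DMa, a chain of the H2-DM complex that loads peptide onto class II molecules, was 11.96 in naive, 12.97 in rejecting and 12.00 in tolerant CD69+ cells and 13.54, 14.29 and 12.79 in CD69- cells, 2.02-fold higher in rejecting than naive CD69+ cells. Its second probe differed by 1.11. H2-Ab1 was 9.55 in naive and 10.08 in rejecting cells, H2-Oa 9.60 and 9.99, and the invariant chain Cd74 10.97 and 11.04, so that all 4 measured members of 11 were above 0 with a median of 0.46. The 8 detected class II genes of the 11 listed summed to a signal of 10132 in naive and 15335 in rejecting CD69+ cells, beside the lower sum of the B cell markers, and the part of B cells in the class II values was not tested. Of 20 measured class I and processing genes none was past 1.5-fold, 18 were above 0 and the median was 0.11.

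Of 14 measured mitosis genes 3 were at least 1.5-fold higher (against 1.74% overall), none was lower, 11 were above 0 and the median was 0.29. Birc5, survivin, was 8.96 in naive, 9.71 in rejecting and 8.58 in tolerant CD69+ cells and 7.15, 7.70 and 6.23 in CD69- cells. Top2a, the topoisomerase of dividing cells, was 9.52, 10.12 and 9.22 in CD69+ cells and 7.16, 7.35 and 6.15 in CD69- cells, and Cdca3 differed by 0.63. Birc5 and Top2a were highest in rejecting CD69+ cells among all 6 arrays. Cdk1, the mitotic kinase, differed by 0.17 and Cdc20 by -0.14.

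The listed genes of the preceding steps of the cycle showed less. Of 34 measured DNA replication genes none was past 1.5-fold and the median was 0.06. The cell cycle lists did not hold Pclaf, a PCNA-binding factor, and Pbk, a mitotic kinase. Both were past 1.5-fold higher, at 0.81 and 0.63, and no CD69- array detected either. Among 16 genes of G1 the 2 past 1.5-fold higher, beside 1.74% of all 5587 genes, were inhibitors of cyclin-dependent kinases. Cdkn2d was 8.98 in naive and 9.73 in rejecting CD69+ cells. Cdkn1a (p21) was 9.26 and 9.94, with 6.37 and 7.94 in the CD69- cells. Cyclin D2, Ccnd2, differed by -0.17. Of 21 survival and death genes Casp6, an executioner caspase, and Cdkn1a were past 1.5-fold higher, at 0.76 and 0.69, beside the same 1.74%. The p53 target Bbc3 (PUMA) differed by 0.43.

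No growth or respiration gene was past the threshold. Of 31 measured ribosome biogenesis genes 5 were above 0 and the median was -0.12, with Nat10 at -0.40, Nhp2 at -0.29 and Npm1 at 0.00. Of 30 oxidative phosphorylation genes 9 were above 0 and the median was -0.07. Regulatory T cell genes gave 0 of 18 past 1.5-fold, with Foxp3 at 12.01 in naive and 12.05 in rejecting CD69+ cells and Ctla4 at 11.70 and 12.12. Of 30 T cell receptor signalling genes none was past 1.5-fold and the median was 0.11.

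Single members stood out in lists that were otherwise near 0. Of all 5587 genes outside the interferon list 1.74% were past 1.5-fold higher and 0.537% lower. Cxcr4, the homing receptor for CXCL12, was 7.78 in naive, 8.48 in rejecting and 9.15 in tolerant CD69+ cells, 1 of 2 trafficking genes past 1.5-fold among 17, the other being Ltb4r1. Nfkbib, the inhibitor IκBβ, was 8.96, 8.16 and 8.66 in CD69+ cells and alone past 1.5-fold among 18 NF-κB genes, though its difference of -0.81 became -0.58, just short of 1.5-fold, in the authors' table. Cd160, a receptor of natural killer and CD8 T cells, was 11.31, 10.73 and 10.64 in CD69+ cells and alone past it among 21 inhibitory and anergy genes. Ctsw, a protease of cytotoxic cells, was 11.68, 12.29 and 12.04 and alone past it among 9 cytotoxic genes. The medians of these 4 lists were -0.03, 0.02, -0.05 and 0.03.

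Of 21 TNF family and costimulation genes Tnfsf11 was past 1.5-fold, Cd70, the ligand of CD27, differed by -0.56, and the median was -0.07. Evl was past it among 32 actin and effector genes, whose median was 0.01. None was past it among 17 listed sterol and fatty acid genes (median 0.05), 19 effector and memory genes (0.01) and 11 genes of TGF-beta, Notch and Wnt signalling (0.15). The sterol list did not hold Idi2, a gene of sterol synthesis that was past 1.5-fold lower (-1.24) and is described below. Of the markers of other cells that a CD3 sort could hold, Cd160 of the 3 measured natural killer genes was past 1.5-fold, and none of 2 plasma cell, 2 dendritic cell, 1 macrophage and 3 erythroid markers was. The 1 detected granulocyte marker stayed under the signal minimum, and of 7 platelet markers 0 were detected.

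**Figure D3:**
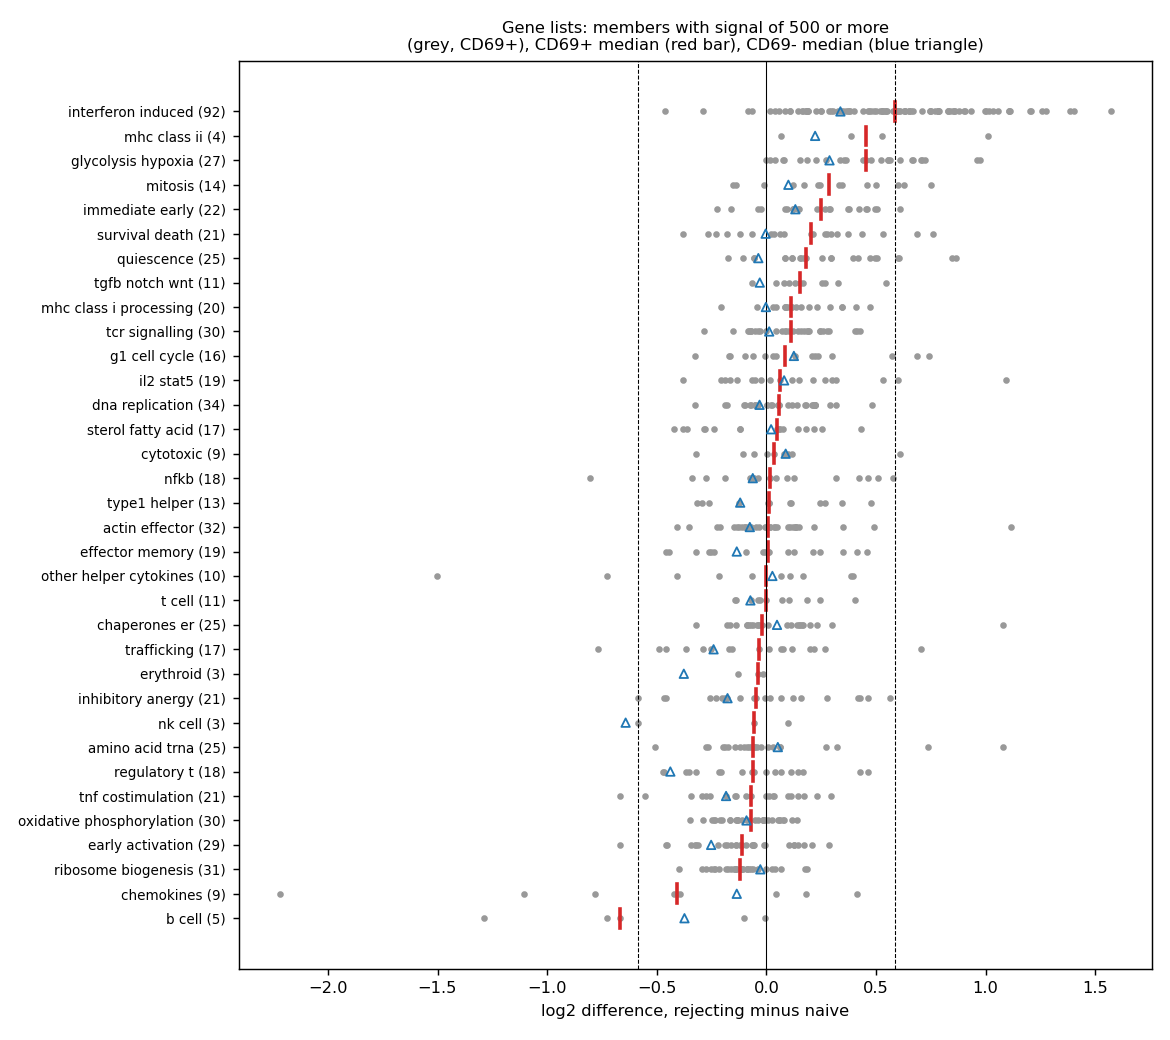
Gene lists with at least 3 measured members, ordered by the median log2 difference, rejecting minus naive, of CD69+ cells (red bar), with each member as a grey point and the CD69- median as a blue triangle. The interferon list (0.58), class II genes (0.46) and glycolysis and hypoxia genes (0.45) lie at the upper end, and B cell markers (-0.67) and chemokines (-0.41) at the lower end.

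The remaining genes of the 15 furthest lower, Pheta1 excepted, had less signal in CD69- than in CD69+ cells of every status. Idi2, an isopentenyl diphosphate isomerase of sterol synthesis, was 9.56 in naive, 8.32 in rejecting and 9.04 in tolerant CD69+ cells. Bdh2, a cytosolic hydroxybutyrate dehydrogenase, was 9.47, 8.33 and 9.20. Neither was detected in CD69- cells, and naive and tolerant CD69+ cells were closer to each other than to rejecting cells.

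Actg2, smooth muscle gamma actin, was 9.17, 8.40 and 9.11 and followed the same order, whereas Utf1, a chromatin factor of embryonic stem cells, was 9.61, 8.86 and 8.55. Cdk5r1, the p35 activator of Cdk5, was 10.23 in naive, 9.38 in rejecting and 9.36 in tolerant CD69+ cells and 7.24, 6.27 and 7.39 in CD69- cells. The endosomal trafficking protein Pheta1 was 9.01, 8.23 and 8.92 in CD69+ cells and 8.83, 8.89 and 8.75 in CD69- cells, where the statuses were close together. In the authors' table Actg2 and Pheta1 differed by -0.58 and -0.57, just short of 1.5-fold.

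The CD69- arrays gave a second look at the same statuses on other libraries. Of the 97 higher genes 87 (89.7%) were above 0 there, with a median of 0.34, and 29 were at least 1.5-fold higher, where 1.65% of 5389 genes outside the interferon list were. Of the 30 lower genes 23 (76.7%) were below 0, with a median of -0.22, and 9 were at least 1.5-fold lower, where 1.17% were. Over all 5587 genes the sign was the same in both fractions for 60.6%. The CD69+ medians are those of genes chosen for that difference, so the smaller CD69- medians follow in part from the choice, and 16 of the lower genes were not detected on either CD69- array. The 2 higher genes that were 1.5-fold lower in CD69- cells were Fos and Il7r.

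**Figure D4:**
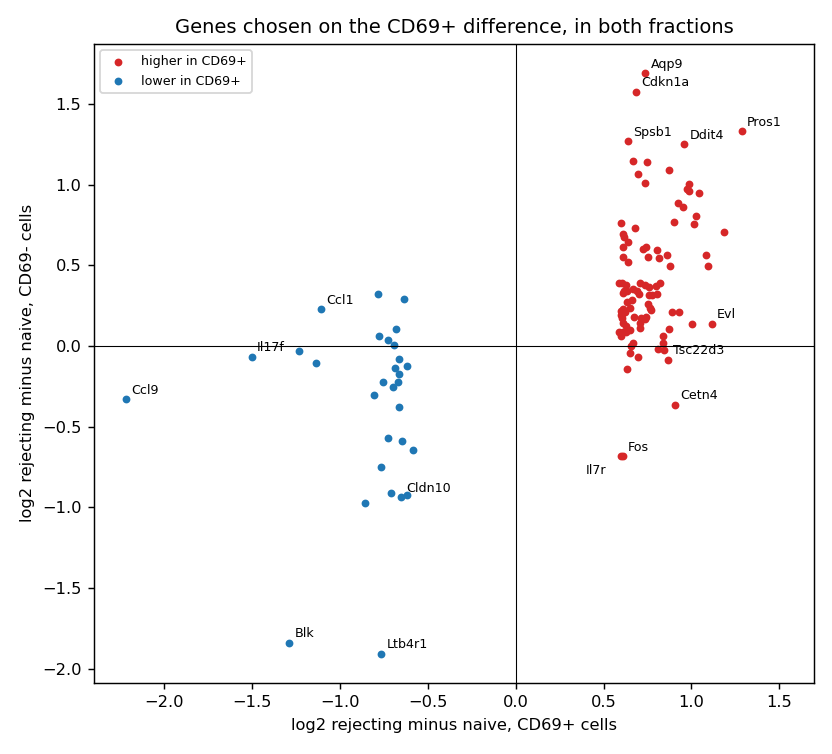
The 97 higher (red) and 30 lower (blue) genes, with the log2 difference, rejecting minus naive, in CD69+ cells on the x axis and in CD69- cells on the y axis. Most red points lie above 0 on the y axis, many below the CD69+ value, with Fos and Il7r near -0.68, and Blk and Ltb4r1 are the lowest blue points.

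An additive fit over both fractions, with 2 arrays a status and fraction as a block, is the only test the design allows for rejecting against naive cells. With limma, 0 of 10687 features (0.0%) passed an adjusted p of 0.05, and 507 had an unadjusted p under 0.05. For Pros1 the fitted difference was 1.31 (SE 0.27, n = 2 arrays a status, limma adjusted p = 0.969), for Ddit4 1.10 (SE 0.19), for Egln3 0.97 (SE 0.22) and for Blk -1.56 (SE 0.31), all with the same adjusted p. The error there is the spread of the difference between CD69+ and CD69- cells, not between mice, and the fit has 2 residual degrees of freedom. The tolerant arrays were part of this fit, so each SE also depends on the difference between the fractions in tolerant mice.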

How the data were processed

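T cells of 3 statuses and 2 fractions were measured with 1 single-colour array each, grouped by sample title. Per the file headers, the deposited table without normalization has a linear signal intensity for each of 45281 probes, neither background subtracted nor scaled, and the authors' detection p-value per probe, which moves in steps of 1 over 936. The authors' value table holds deposited linear intensities with a median of 168.3 in every column, and its method is not given in the sources used here. The authors worked in GenomeStudio 2009.2, per the submitters' processing notes. Neither slide nor hybridization date is given in the sources used here, and a batch effect was therefore not tested.

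All 6 arrays were processed with limma 3.58.1 in R 4.3.3: background was corrected by normexp with negative controls inferred from the detection p-values, 16 was added, and signals were quantile normalized and taken to log2. Kept were features that any array detected at p under 0.01, with the probe of highest mean level for each symbol, which gave 10687 features, 8347 of them named. Of the probes 34885 had 1 symbol in the platform annotation, 18 had several and 10378 had none listed. Updated symbols came from a RefSeq gene table of GRCm38.p6.

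The count of genes at least 1.5-fold apart with a signal of 500 or more describes 2 arrays. The fit over both fractions used lmFit and eBayes with Benjamini-Hochberg adjustment. The text names the 15 genes furthest in each direction, and in each function list up to 4 members with the largest difference and those that define it. The members, the 29 function lists and 11 cell type lists were chosen with earlier results of these data known, so they give no independent support. A gene below background on the dim array has a bound, the bright level against that of the dimmest detected probe there or its own level if higher. Alternatives were the authors' table, no background correction, median centring, other offsets and filters, every probe on its own, other thresholds, no block and no tolerant arrays. The number of arrays limits the precision throughout.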

Additional observations from a re-analysis of the deposited data

Results flagged for a closer look

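Of the 30 genes furthest apart and the genes past 1.5-fold in both fractions, 4 that a CD69- array detected had opposite directions in the 2 fractions. Fos was higher in rejecting than naive CD69+ cells by 0.61 and differed by -0.68 in CD69- cells. Il7r was higher by 0.60 in CD69+ cells and differed by -0.68 in CD69- cells. Xcl1 differed by -0.78 in CD69+ and by 0.32 in CD69- cells, where its levels were 6.94 and 7.26. Pheta1 differed by -0.78 in CD69+ and by 0.0594 in CD69- cells. Each value sets 1 array against 1, and the difference between the fractions was not tested.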

How the results depend on the processing

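The counts of genes 1.5-fold apart, 97 higher and 30 lower, moved by over 1.5 times under several settings. The authors' value table and the setting with no background correction each gave 58 higher and 15 lower, all 58 and 15 of them among the main calls. A 2-fold minimum gave 9 and 6, and no signal minimum gave 252 and 145. Every probe on its own gave 127 higher and 50 lower, and a signal of 1000 in the brighter array gave 65 and 9. Median centring gave 141 and 26, and the remaining settings gave 87 to 105 higher and 26 to 32 lower. Of 239 values of the 30 genes furthest apart, 0 reversed and 2 moved by over 1.5-fold, both for Ccl9, at -1.30 in the authors' table and with no background correction. Under these same 2 settings Nfkbib (-0.58), Pheta1 (-0.57) and Actg2 (-0.58) came to lie under 1.5-fold. Of 304 list medians 6, of 5 lists within 0.04 of 0, changed sign: other helper cytokines, chaperones, actin and effector, T cell and erythroid genes under median centring, and the first also with the 2 arrays normalized alone. The fit over both fractions called 0 genes under its 9 alternatives, with 19 to 1483 features at an unadjusted limma p under 0.05 and a lowest adjusted p of 0.1445, in the fit without the tolerant arrays. No paired analysis was possible because the labels carry no replicate numbers and each group is 1 array, and the block of the fit is the fraction. The cause of these shifts was not tested beyond what each setting does by construction.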
